A study of Mus musculus with 6 samples.

Results

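The Toll-like receptors are described here as 10 genes, Tlr1 to Tlr9 and Tlr13, taken by symbol from the 56832 gene rows of 6 RNA sequencing libraries. All 10 symbols were present. The libraries were made from polyadenylated RNA of cells labelled as monocytes of mouse peripheral blood. The 3 thrombocytopenic libraries (labelled DTR) came from PF4cre-iDTR mice, in which Cre driven by the promoter of the platelet factor 4 gene Pf4 switches on a diphtheria toxin receptor. The 3 control libraries (labelled WT) came from wild type mice. Diphtheria toxin (written Diptheria Toxin in the labels) is given as the treatment of both groups, so platelet loss and genotype cannot be told apart. The Cre promoter's own gene, Pf4, was read in these cells at 1095 ± 38.8 CPM (counts per 1e6 reads assigned to genes, TMM-scaled; mean ± SD, n = 3) in the thrombocytopenic group and 924 ± 23.4 CPM in the controls, and activity of Cre in them was not tested. Age, strain and the number of animals behind a library are not given in the labels, so p-values reflect how far these libraries differ from each other, which could be technical.

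Toll-like receptors are innate immune receptors that recognise microbial molecules, and monocytes and macrophages are among the cells known for carrying many of them. One set sits at the cell surface and reads lipids and proteins: Tlr2, which pairs with Tlr1 or Tlr6 to bind bacterial lipopeptides, Tlr4, which binds lipopolysaccharide, and Tlr5, which binds flagellin. The other set sits in endosomes and reads nucleic acids. It holds Tlr3 (double-stranded RNA), Tlr7 (single-stranded RNA) and its relative Tlr8, Tlr9 (unmethylated CpG DNA) and Tlr13 (bacterial ribosomal RNA). Both sets signal through the adaptor Myd88, except Tlr3, which uses Ticam1, and Tlr4, which uses both.

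All 5 endosomal receptor genes were lower in the thrombocytopenic libraries, by 2.09-fold for Tlr9, 1.48-fold for Tlr3, 1.32-fold for Tlr7, 1.16-fold for Tlr8 and 1.07-fold for Tlr13. Of the surface receptors, Tlr2 fell by 0.69 on the log2 scale, Tlr1 rose by 0.09, and Tlr4 and Tlr6 did not pass the test. Tlr5 had too few counts to be tested. In all, 7 of 9 tested members were called at an adjusted p under 0.05 (edgeR, quasi-likelihood), where 45.1% of all 12488 genes tested were called. Of the members 6 were lower, where 22.7% of all genes tested were lower, and 1 was higher, where 22.4% were. The median log2 fold change was -0.40 over the 5 endosomal members and -0.06 over the 4 tested surface members, against -0.00077 over all genes tested. As these are bulk libraries, fewer cells of a type and less RNA per cell cannot be told apart.

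Library totals ran from 24842319 to 37552029 counts, and with a biological coefficient of variation of only 2.68% small differences could pass. The cells were checked against marker genes: Lyz2 stood at 13705 ± 115 CPM against 11986 ± 260 CPM in the controls, and the macrophage marker Adgre1 at 3285 ± 90.2 CPM against 2712 ± 82.5 CPM. Of 12 monocyte and macrophage markers all were tested, 6 were higher and 5 lower. Platelet and megakaryocyte markers split: of 6 tested, Pf4 and Ppbp were higher and 4 were lower, and the list summed to 1222 to 1294 CPM against 1009 to 1055 CPM. The lower ones were Nrgn (2 counts against 332 over the group), Gp9 (0 against 41), Itga2b (0.343 ± 0.190 against 0.863 ± 0.298 CPM) and Itgb3 (0.759 ± 0.266 against 1.44 ± 0.067 CPM). Nrgn, Gp9 and Itga2b would not have passed the filter on low counts without the controls. Neutrophil markers summed to 191 to 199.5 CPM against 165 to 171 CPM. Of 7 tested, the most abundant, Csf3r and Mmp9, were higher, Ngp was lower, and S100a8, S100a9, Camp and Ltf did not pass. Basophil and mast cell markers were lower in all 5 tested members and summed to 1.29 to 2.18 CPM against 9.55 to 10.7 CPM, with Kit and Prss34 the most abundant over the 6 libraries together. All but Kit passed the filter on low counts only through the control libraries. A higher call was thus hardly open to them. Among all genes tested 22.7% were lower and 22.4% higher. The part of these cells in the receptor values was not tested. T cell genes Cd3e, Cd3d and Cd3g had no count in any library, and the B cell gene Ms4a1 was at 0.011 ± 0.019 CPM against 0.013 ± 0.023 CPM. For the X-linked members Tlr7, Tlr8 and Tlr13, sex-linked genes were looked at as well, chosen after their values were seen. Xist had 0 to 3 counts in each library. The Y-linked gene Ddx3y was read in all 6 libraries, at 133, 130 and 138 CPM in the thrombocytopenic and 115, 114 and 113 CPM in the control libraries.

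The upstream sequences of the genes with the largest falls, Tlr9 and Tlr2, are shown because these members moved furthest from the controls. They are the 250 bases before the start of the gene (RefSeq, build GRCm38.p6), 5′ to 3′ on the gene's strand. Tlr9 lies at chr9:106222348-106222597 on the plus strand and Tlr2 at chr3:83841609-83841858 on the minus strand. Capitals mark letters that match one of 4 motifs searched on both strands: GAGGAA (core of the myeloid factor PU.1), GGAAGT (ETS core), TGANTCA (AP-1) and the NF-kB motif.
Tlr9: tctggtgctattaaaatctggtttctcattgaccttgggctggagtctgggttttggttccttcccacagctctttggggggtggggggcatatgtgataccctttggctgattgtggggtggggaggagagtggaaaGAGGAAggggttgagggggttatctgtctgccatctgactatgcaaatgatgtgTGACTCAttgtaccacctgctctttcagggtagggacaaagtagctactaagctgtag
Tlr2: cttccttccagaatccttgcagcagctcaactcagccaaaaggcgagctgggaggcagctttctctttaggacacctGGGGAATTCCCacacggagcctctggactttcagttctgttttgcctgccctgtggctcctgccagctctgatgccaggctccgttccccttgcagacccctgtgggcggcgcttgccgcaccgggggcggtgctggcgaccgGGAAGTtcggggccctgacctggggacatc

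Tlr9 held the PU.1 core 112 bases and the AP-1 motif 58 bases before its start. Tlr2 held the ETS core 30 bases before its start and overlapping NF-kB matches that begin 173 and 172 bases before it. Among the 8 members with an entry in the promoter table, 4 held the PU.1 core (Tlr1, Tlr8, Tlr9 and Tlr13), 3 the ETS core (Tlr1, Tlr2 and Tlr6), 2 the NF-kB motif (Tlr2 and Tlr3) and 1 the AP-1 motif (Tlr9). The shares over 27025 genes were 23.1%, 20%, 3.75% and 6.87%, respectively. PU.1 and ETS cores overlap in Tlr1. Tlr1 and Tlr6 have 2 listed starts each, and the first listed was used. At the other start of each gene none of the motifs was found, so the counts of members depend on this choice. For Tlr6 an annotated transcript start (GENCODE M21) was found in the sequence of the other start and not in that of the first listed. Tlr4 and Tlr7 had no entry.

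Tlr1 and Tlr6 are neighbouring genes with similar coding sequences. The stretch they share is shown because a read that lies wholly within it matches both genes. Of the 2336 windows of 50 bases in the Tlr1 coding sequence, 454 (19.4%) also occur in Tlr6, and no other pair of members shares any such window. The longest identical run is 229 bases. It is given in capitals with 15 bases on each side, from coding positions 1468 to 1696 of Tlr1 and 1507 to 1735 of Tlr6 (GENCODE M21 transcripts, position 1 being the first coding base).
Tlr1: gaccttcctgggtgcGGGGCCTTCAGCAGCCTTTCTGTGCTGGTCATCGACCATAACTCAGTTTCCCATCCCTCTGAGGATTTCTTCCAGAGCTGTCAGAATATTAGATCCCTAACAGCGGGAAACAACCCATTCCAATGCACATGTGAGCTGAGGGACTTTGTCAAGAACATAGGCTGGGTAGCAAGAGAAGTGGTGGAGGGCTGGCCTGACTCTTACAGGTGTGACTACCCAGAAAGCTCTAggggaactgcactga
Tlr6: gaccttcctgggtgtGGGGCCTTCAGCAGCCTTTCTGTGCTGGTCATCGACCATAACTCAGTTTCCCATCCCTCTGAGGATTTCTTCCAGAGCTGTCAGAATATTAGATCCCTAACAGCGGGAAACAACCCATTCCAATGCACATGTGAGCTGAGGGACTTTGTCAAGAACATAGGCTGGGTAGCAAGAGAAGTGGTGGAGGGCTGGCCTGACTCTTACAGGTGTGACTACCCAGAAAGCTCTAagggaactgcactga

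Among the surface receptors, Tlr2 was the most abundant member and the only one called lower. It was read at 874, 859 and 867 CPM in the thrombocytopenic libraries and at 1402, 1397 and 1401 CPM in the control libraries. The groups lay far apart beside a spread of 7.23 CPM (SD) in the thrombocytopenic and 2.67 CPM in the control libraries, and the log2 fold change was -0.69 (SE 0.023; edgeR adjusted p = 2.16e-31). Only 5.97% of genes tested had a fold change as low or lower.

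Tlr1, a partner of Tlr2, stood at 299.9, 298 and 283 CPM in the thrombocytopenic libraries and at 283, 264 and 281 CPM in the controls. The groups met almost exactly, with the lowest thrombocytopenic library at 282.70 CPM and the highest control library at 282.67 CPM. The log2 fold change was 0.09 (SE 0.029; edgeR adjusted p = 0.00812). The call was lost without thrombocytopenic replicate 1 (0.076, edgeR adjusted p = 0.0564), without control replicate 2 (0.056, adjusted p = 0.148) and with upper quartile scaling (0.067, adjusted p = 0.0525). Tlr6, the other partner, was at 68.0, 67.7 and 65.1 CPM against 68.0, 65.4 and 67.9 CPM. Its groups overlapped, and its log2 fold change was -0.0026 (SE 0.037; edgeR adjusted p = 0.966). With the counts of Tlr1 and Tlr6 summed into 1 row, because of the stretch they share, the log2 fold change was 0.07 (SE 0.028; edgeR adjusted p = 0.0291).

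Per kilobase of exon, Tlr2 exceeded Tlr1 by 3.28 ± 0.111 times (mean ± SD, n = 3) in the thrombocytopenic libraries and by 5.64 ± 0.200 times in the controls. The ratio to Tlr6 was 16.0 ± 0.408 against 25.8 ± 0.516. In both ratios every thrombocytopenic library lay below every control library, from 3.20 to 3.40 against 5.51 to 5.87 for Tlr1 and from 15.7 to 16.5 against 25.5 to 26.4 for Tlr6. By these counts Tlr2 RNA stayed in excess over the RNA of either partner in all 6 libraries. How reads in the stretch shared by Tlr1 and Tlr6 were counted is not given, so the size of these ratios is uncertain.

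Tlr4, the lipopolysaccharide receptor, was read at 18.7, 22.1 and 21.1 CPM in the thrombocytopenic libraries and at 19.9, 22.8 and 24.0 CPM in the controls. The groups overlapped, with a log2 fold change that missed the threshold (-0.12, SE 0.065; edgeR adjusted p = 0.152). Without control replicate 1 it was called lower (-0.18, edgeR adjusted p = 0.0200). Tlr5, the flagellin receptor, had 4, 0 and 1 counts in the thrombocytopenic libraries and 1, 3 and 2 in the controls. The ratio of its summed counts was 0.725, with a 95% interval from 0.175 to 2.85 that covers counting error only, so a difference was not detectable at this depth.

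Among the endosomal receptors, Tlr9, the CpG DNA receptor, changed most. It was read at 24.8, 26.8 and 25.3 CPM in the thrombocytopenic libraries and at 55.1, 53.7 and 51.1 CPM in the controls. Every thrombocytopenic library was far below every control library, and the log2 fold change was -1.06 (SE 0.047; edgeR adjusted p = 2.97e-26). Calls of at least 2-fold lower covered 3.02% of genes tested. In the same libraries 7 of 8 tested markers of plasmacytoid dendritic cells, a cell type known for Tlr7 and Tlr9, were lower and none was higher, where 22.7% of all genes tested were lower. Of these markers Siglech, Ly6d and Cox6a2 would not have passed the filter on low counts without the controls. The filter thus favoured a lower call for them. The summed level of the list ran from 333 to 343 CPM in the thrombocytopenic and from 434 to 459 CPM in the control libraries. Bst2 and Tcf4 carried most of that sum, at 213 ± 3.73 and 117 ± 2.13 CPM against 280 ± 10.5 and 153 ± 2.15 CPM. The defining marker Siglech was near the floor, at 0.313 ± 0.064 CPM against 1.39 ± 0.099 CPM, and Klk1 had no count. Conventional dendritic cell markers were lower in 5 of 6 tested members, against the same 22.7%, with sums from 22.2 to 25.4 CPM against 41.1 to 47.2 CPM. Zbtb46 and Clec9a of that list also needed the controls to pass the filter. Of the markers of B cells, another Tlr9-bearing type, Cd22 was at 1.04 ± 0.188 against 4.84 ± 0.223 CPM and Cd79b at 1.34 ± 0.283 against 1.39 ± 0.299 CPM. The part of such cells in the fall of Tlr9 was not tested.

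Tlr3, the double-stranded RNA receptor, was read at 57.2, 54.9 and 54.2 CPM in the thrombocytopenic libraries and at 81.1, 81.2 and 83.7 CPM in the controls. All thrombocytopenic libraries were below all controls, with a log2 fold change of -0.56 (SE 0.037; edgeR adjusted p = 5.06e-19). The antisense gene Gm45542 overlaps its exons and had 1 count over all 6 libraries. No other member has an overlapping gene in GENCODE M21.

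Tlr7, a single-stranded RNA receptor, was read at 264, 264 and 258 CPM in the thrombocytopenic libraries and at 345, 337 and 353 CPM in the controls. Tlr8, its neighbour and relative on the X chromosome, was at 212, 215 and 211 CPM against 246, 246 and 247 CPM. The groups were apart for both genes. The log2 fold change was -0.40 for Tlr7 (SE 0.027; edgeR adjusted p = 2.3e-18) and -0.21 for Tlr8 (SE 0.027; edgeR adjusted p = 3.67e-09). Tlr13, the receptor for bacterial ribosomal RNA, was at 176, 177 and 177 CPM against 194, 186 and 186 CPM. Its groups were apart too, but by a small margin, with a log2 fold change of -0.09 (SE 0.029; edgeR adjusted p = 0.00651), and the call was lost without control replicate 1 (-0.08, edgeR adjusted p = 0.0564). Of the 5 endosomal members all were wholly below the controls, where 26% of genes tested were.

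**Figure D1:**
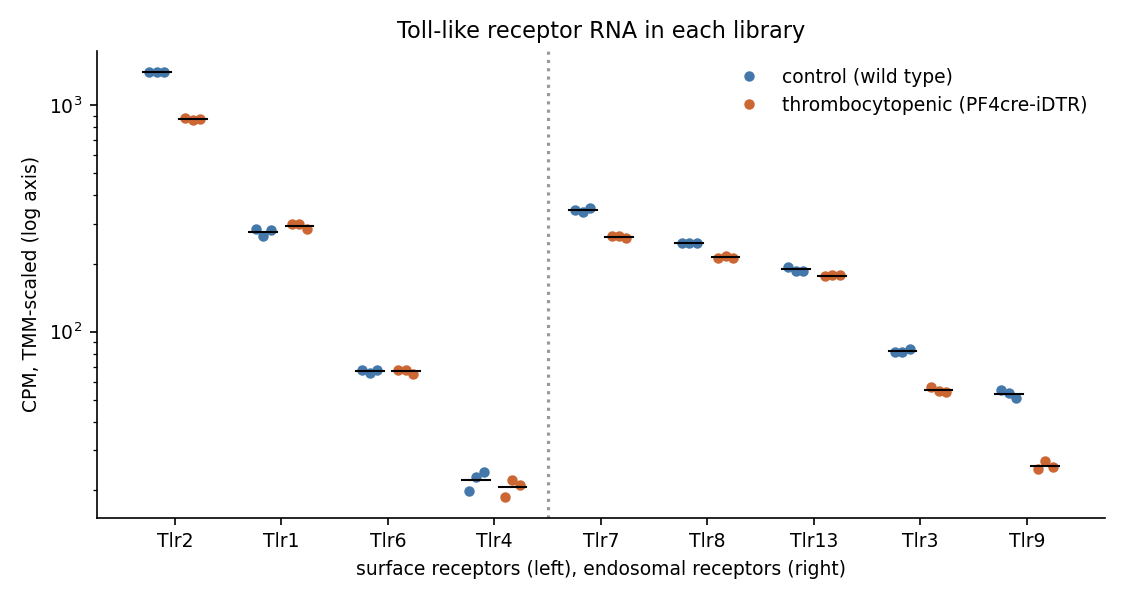
TMM-scaled CPM (log axis) of the 9 tested receptor genes in each library, surface receptors to the left of the dotted line and endosomal receptors to the right, with a bar at each group's mean (n = 3). The thrombocytopenic libraries sit below the controls for Tlr2 and all 5 endosomal genes, and the groups overlap for Tlr4 and Tlr6.

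**Figure D2:**
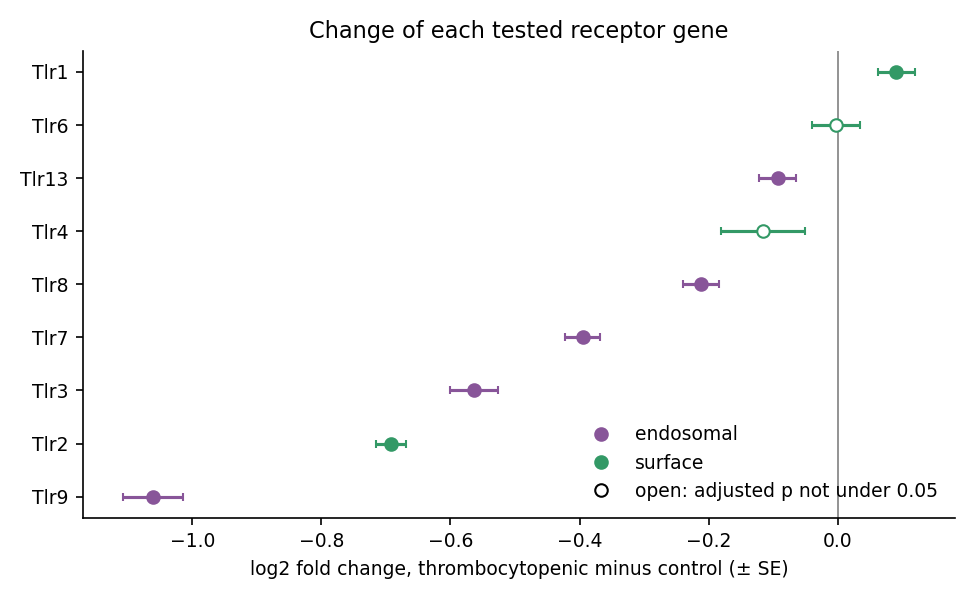
Log2 fold change of each tested receptor gene, thrombocytopenic minus control, with its standard error. Values run from -1.06 for Tlr9 to 0.09 for Tlr1, and open points mark genes with an adjusted p of 0.05 or more (Tlr4 and Tlr6).

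The sizes of these falls differed among the endosomal members. Per kilobase of exon, Tlr7 exceeded Tlr9 by 8.73 ± 0.329 times in the thrombocytopenic libraries and by 5.51 ± 0.311 times in the controls, with ranges of 8.41 to 9.07 and 5.33 to 5.87 that do not overlap. The ratio of Tlr8 to Tlr7 was 0.924 ± 0.0083 against 0.814 ± 0.0183, again without overlap. With 3 libraries against 3 an exact permutation test of a ratio cannot give a p below 0.1, and none is given.

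Ordered by CPM per kilobase of exon (on library totals), the control libraries had Tlr2 (465 ± 0.95) first, followed by Tlr7 (84.6 ± 1.91), Tlr1 (82.6 ± 3.04), Tlr8 (68.8 ± 0.070), Tlr13 (43.9 ± 1.03), Tlr6 (18.03 ± 0.392), Tlr3 (15.8 ± 0.278), Tlr9 (15.4 ± 0.587) and Tlr4 (3.58 to 4.32). In this order the neighbours Tlr7 and Tlr1, and Tlr3 and Tlr9, did not differ beyond their spread. In the thrombocytopenic libraries Tlr1 (87.6 ± 2.60) stood above Tlr7 (64.1 ± 0.698), and Tlr9 (7.35 ± 0.310) below Tlr3 (10.6 ± 0.266), each pair apart in every library. Tlr2 (287 ± 1.94) remained first and Tlr4 (3.71 ± 0.325) last of the 9. Exon lengths are those of GENCODE M21, which may differ from the annotation behind the counts. The places of Tlr1 and Tlr6 also depend on how reads in their shared stretch were counted, which is not given. With coding length in their place the controls had Tlr1 above Tlr7 and Tlr3 above Tlr6, and the order in the thrombocytopenic libraries was the same as by exon length.

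**Figure D3:**
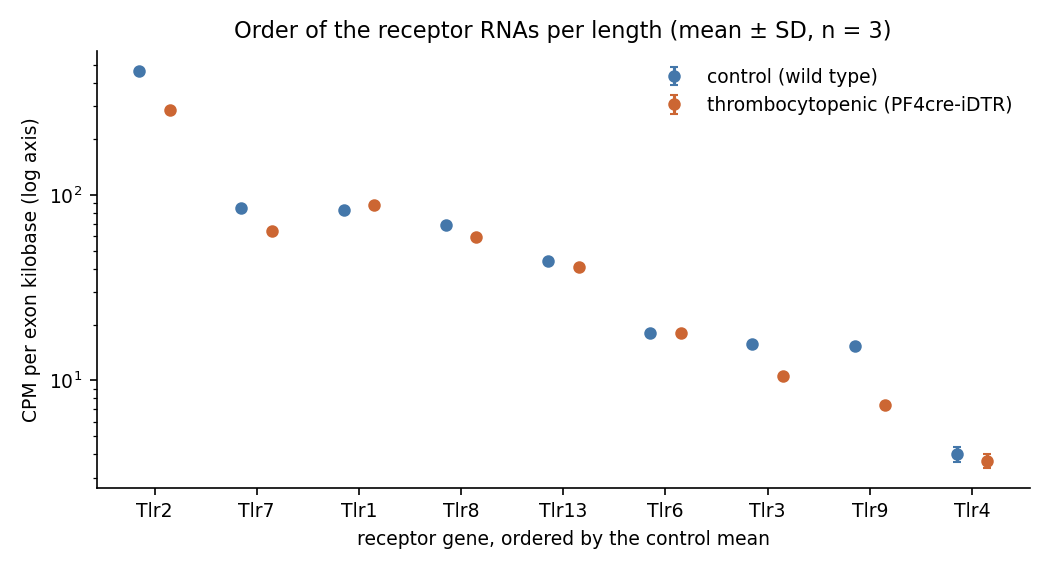
CPM per kilobase of exon (log axis, mean ± SD over 3 libraries) of 9 receptor genes, ordered by the control mean. Tlr2 is highest in both groups, at 465 in the controls and 287 in the thrombocytopenic libraries. Tlr7 and Tlr1 lie within each other's spread in the controls, and Tlr1 lies above Tlr7 in the thrombocytopenic libraries.

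Summed over the 10 members, receptor RNA made up 1994, 1986 and 1962 CPM in the thrombocytopenic libraries and 2693, 2654 and 2694 CPM in the controls. The sum was 26.1% lower in the thrombocytopenic group. Tlr2 alone held 76.2% of the difference between the means, Tlr7 11.8%, Tlr8 4.8%, Tlr9 3.96% and Tlr3 3.8%. Without Tlr2 the sum was 1114 ± 16.6 CPM against 1280.3 ± 20.4 CPM.

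The endosomal share of all receptor counts was 36.8%, 37.2% and 37.0% in the thrombocytopenic libraries and 34.2%, 34.1% and 34.2% in the controls, a difference of 2.85 percentage points. This difference turned on Tlr2: without it the endosomal share was 65.5%, 65.5% and 66.3% against 71.3%, 72.0% and 71.2%, a difference of -5.70 points. Tlr2 itself fell from 52.2% ± 0.352 to 43.8% ± 0.460 of receptor counts. These shares are given as descriptions with no test.

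**Figure D4:**
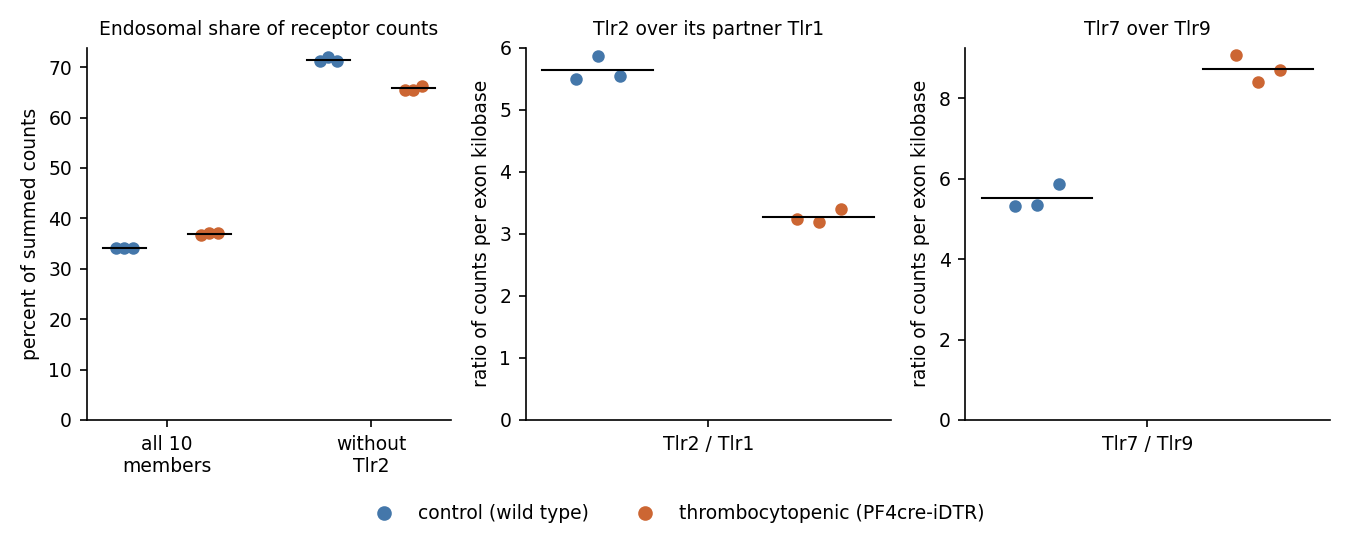
Left, the endosomal share of summed receptor counts (percent) with all 10 members and without Tlr2. Middle and right, ratios of counts per kilobase of exon, Tlr2 over Tlr1 and Tlr7 over Tlr9. Each point is a library and each bar a group mean. With all members the share is higher in the thrombocytopenic libraries (36.8% to 37.2% against 34.1% to 34.2%), and without Tlr2 it is lower.

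Other rows of the family lie outside the 10 members. Tlr11 had 19, 15 and 15 counts in the thrombocytopenic libraries and 9, 14 and 10 in the controls, and its change missed the threshold (log2 fold change 0.37, edgeR adjusted p = 0.441). Tlr12 had 1 count in each group.

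Genes that work with the receptors were taken from lists by role, and the counts and medians below are descriptions to be read against the 45.1% of genes called and a median near 0. Among co-receptors and accessory proteins 2 of 6 tested genes were higher and 2 lower, with a median log2 fold change of -0.14. Cd180, a receptor-like protein that modulates Tlr4 signalling, fell from 383 ± 8.82 to 220.2 ± 4.75 CPM (-0.80, SE 0.028), and its binding partner Ly86 from 57.7 ± 1.48 to 45.3 ± 0.769 CPM (-0.35, SE 0.041). Cd14, which hands lipopolysaccharide to Tlr4, rose from 710.3 ± 22.2 to 871 ± 17.6 CPM. Ly96, the part of the Tlr4 complex that holds lipopolysaccharide, was at 16.8 ± 0.254 against 16.0 ± 1.64 CPM, a difference that missed the threshold.

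Of 11 tested genes for chaperones and trafficking, 2 rose and 2 fell, with a median of -0.05. Unc93b1, which escorts the endosomal receptors out of the endoplasmic reticulum, was at 465 ± 8.13 against 481 ± 9.40 CPM, short of the threshold (log2 fold change -0.05, SE 0.026; edgeR adjusted p = 0.139). The chaperone Hsp90b1 did not pass either (-0.05), while its co-chaperone Cnpy3 fell by 0.27 on the log2 scale. Rab7b, a small GTPase of late endosomes, fell from 104.5 ± 3.17 to 74.8 ± 1.82 CPM, and Slc15a4, a lysosomal transporter needed for Tlr7 and Tlr9 responses, rose from 59.6 ± 0.637 to 81.8 ± 2.93 CPM.

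Of the endosomal proteases that cut receptors of this set, 5 of 6 were lower and 1, Ctsl, was higher, with a median of -0.28. Ctsk fell from 24.2 ± 1.02 to 7.54 ± 1.12 CPM (-1.67, SE 0.074), Ctsh by 0.38 and Ctsb by 0.17 on the log2 scale. Nucleases that supply or remove nucleic acid ligands were lower in 3 of 6 tested and higher in 1, with a median of -0.21. Dnase2a, a lysosomal DNase, fell from 71.6 ± 1.26 to 50.2 ± 0.515 CPM, and the exonuclease Pld3 had a log2 fold change of -0.37. Rnaset2a, whose near copy Rnaset2b makes its counts uncertain, had one of 0.63.

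Adaptors and proximal kinases were higher in 11 of 21 tested and lower in 5, with a median of 0.11. Myd88, the adaptor of most members, rose from 338 ± 4.62 to 364 ± 3.48 CPM (0.11, SE 0.026; edgeR adjusted p = 0.000563). Tirap, which brings Myd88 to surface receptors, rose by 0.49, and Ticam2, which links Ticam1 to Tlr4, by 0.32. Ticam1, the adaptor of Tlr3, was at 50.4 ± 1.53 against 50.5 ± 1.24 CPM, with no call. The kinase Ikbke rose from 507 ± 7.01 to 645 ± 7.58 CPM and Irak2 by 0.34 on the log2 scale. Inhibitors were higher in 3 of 12 tested and lower in 3, with a median of -0.03. Irak3, which blocks Irak signalling, rose from 402 ± 8.53 to 566 ± 4.93 CPM and the phosphatase Ptpn6 by 0.42. Cd300lf, an inhibitory receptor, fell from 46.8 ± 3.85 to 4.497 ± 0.363 CPM (-3.39, SE 0.072).

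Transcription factors that the receptors act through were higher in 4 of 10 and lower in 3, with a median of 0.05. The NF-kB subunit gene Rel rose from 189 ± 3.58 to 275 ± 3.76 CPM. Irf7, which Tlr7 and Tlr9 signal through, fell from 798 ± 12.1 to 636 ± 13.2 CPM (-0.33, SE 0.025) and Irf8 from 143 ± 0.568 to 109 ± 4.35 CPM (-0.40). Irf5, another factor downstream of Myd88, did not pass the test (-0.05). Protein ligands of surface receptors were higher in 1 of 5 tested and lower in 2. The matrix proteoglycan gene Vcan rose by 0.46, Hmgb1 fell by 0.16, and Tnc had 0.356 ± 0.084 against 2.20 ± 0.253 CPM. Tnc would not have passed the filter on low counts without the controls, so the filter favoured a lower call for it. Of 24 known target genes 15 rose and 7 fell, with a median of 0.30. Their RNA was abundant in both groups, with sums from 24396 to 25340 CPM in the thrombocytopenic and from 23493 to 24358 CPM in the control libraries. Whether the cells were activated was not tested. Il1b (log2 fold change 1.32) and Cxcl2 (0.89) rose, and Nos2 fell (-1.31).

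**Figure D5:**
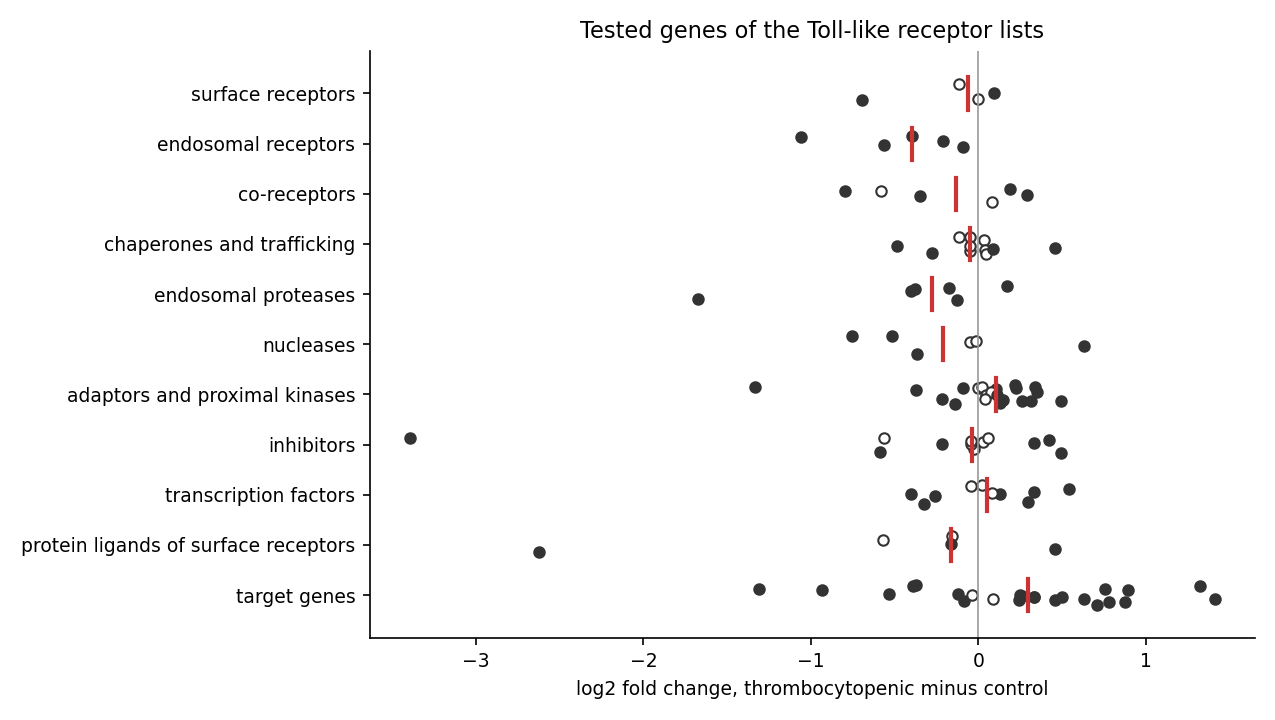
Log2 fold change, thrombocytopenic minus control, of the tested genes in each role list, 1 point per gene and a red bar at the list's median. Filled points passed the test. All 5 endosomal receptors lie left of 0, with a median of -0.40, while the adaptors and target genes have medians of 0.11 and 0.30.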

How the data were processed

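Each deposited file holds the raw counts of 1 library by gene symbol. The tools named in the submitters' processing notes are STAR 2.7.9a, featureCounts, Subread 2.0.1, Salmon 1.5.2 and fastp 0.23.1. For their settings, the genome build and the use of strand, the sources used here say nothing; per the labels' protocols the library kit was stranded. Counts were analysed as deposited in R 4.3.3 with edgeR 4.0.16: genes kept by filterByExpr (count of 10, total of 15), scaling by TMM (0.9943 to 1.002), and a two-sided robust quasi-likelihood test with group as the only term, adjusted by Benjamini-Hochberg over 12488 genes, with a threshold of 0.05. Each SE is the size of the log2 fold change over the square root of F. Groups and replicate numbers come from the sample titles. No library was a copy of another of its group (chi-square per degree of freedom 1.91 to 3.27). The members and lists were chosen with earlier results of these data known. Besides the members, the genes named are the 3 called genes with the smallest p in each list and fixed partners of the receptors; of marker lists, the most abundant tested genes. Ctsl, Siglech, Ly6d, Cox6a2, Zbtb46, Clec9a, Klk1, Nrgn, Gp9, Itga2b, Itgb3, Ngp, S100a8, S100a9, Camp, Ltf, Cd3e, Cd3d, Cd3g, Ms4a1 and Gm45542 were chosen after their values were seen. The fit was tested on simulated data. Alternatives were other scalings, DESeq2 1.42.0, limma-voom (limma 3.58.1), other filters, a threshold of 0.01, a replicate block and leaving out each library.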

Additional observations from a re-analysis of the deposited data

How the results depend on the processing

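Tlr2, Tlr3, Tlr7, Tlr8 and Tlr9 were called lower under all 16 alternatives run for each of them, with log2 fold changes from -0.72 to -0.68, -0.59 to -0.55, -0.42 to -0.38, -0.24 to -0.21 and -1.09 to -1.04. The number of members called lower was 6 under every setting run, but without control replicate 1 Tlr4 took the place of Tlr13. With upper quartile scaling no member was called higher, where Tlr1 had 0.067 (adjusted p = 0.0525), 1 surface receptor was called in place of 2, and 7 genes of the chaperone and trafficking list in place of 4. Leaving out 1 library at a time gave log2 fold changes of 0.056 to 0.119 for Tlr1, -0.107 to -0.077 for Tlr13 and -0.184 to -0.046 for Tlr4, 0 to 1 members called higher, 1 to 3 surface receptors called, 2 to 4 genes of the nuclease list, and 4990 to 5427 genes in all against 5626 with all libraries. With Tlr1 and Tlr6 summed the value was 0.073, against 0.091 for Tlr1 alone and -0.0026 for Tlr6 alone. Most counts of that sum were those of Tlr1 (30203 against 6886 for Tlr6 in the thrombocytopenic and 24598 against 5996 in the control group). The difference in endosomal share was 2.65 points per kilobase of coding length, 1.66 points without Tlr13 and -5.70 points without Tlr2. Same-numbered libraries did not deviate together (correlations of -0.0383, -0.0892 and -0.0127), so no pairing by replicate number was visible in expression. Whether the animals or their processing were paired cannot be told from this check. With a replicate block 5402 genes were called, and the members' calls were 1 higher and 6 lower, as without it. Members under about 1 CPM, here Tlr5, are limited by depth.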
